A study of Arabidopsis thaliana with 6 samples.

Results

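The DREB and ERF proteins are plant transcription factors that share the AP2/ERF DNA-binding domain. This report is about 52 of their genes in *Arabidopsis thaliana*, of 33602 genes in the count table. They were taken by locus identifier from a list that covers the CBF/DREB1, DREB2, TINY-like, RAP2.1/DEAR, other DREB-type and RAP2.4 genes (23 DREB-type genes) and the activator, repressor, RAP2.6/ABR1 and group VII ERF genes (29 ERF-type genes), and the list is not the whole AP2/ERF family. The study compared wild type (Col-0) with *prp40c-1*, a T-DNA insertion line in the Col-0 background for *PRP40C* (AT3G19840), which encodes a protein related to the yeast splicing factor Prp40 of the U1 snRNP. Each genotype had 3 libraries of poly(A) RNA from whole plants, described as 2 weeks old and harvested at 10 to 14 days, grown on medium at 22 °C in continuous white light of 50 µmol per m2 per s with no further treatment. The mutant is represented by a single insertion allele. Nothing in the labels says whether the 3 libraries of a genotype came from separate growths, so the p-values measure the spread between these libraries only.

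DREB proteins bind the dehydration-responsive element, with the core ACCGAC or GCCGAC, and ERF proteins bind the GCC box, AGCCGCC. The CBF factors switch on the COR genes in the cold, DREB2A acts in drought and heat, and the ERF activators act downstream of ethylene, jasmonate, wounding and microbial patterns. The ERF repressors carry an EAR motif and lower the expression of GCC-box genes. Group VII proteins are stabilised at low oxygen and turn on the fermentation genes. Many members are intronless or nearly so, and many are known to be induced within minutes by touch, wounding or cold.

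The reads counted on genes numbered from 34200225 to 40919516 per library. Levels are given as CPM, in which counts are scaled to the same TMM library size (TMM factors 0.987 to 1.01). At this depth 3 counts correspond to 0.0740 to 0.0889 CPM. The targeted gene *PRP40C* was at 24.6, 28.1 and 22.6 CPM in the wild-type libraries and at 11.8, 14.0 and 12.7 CPM in *prp40c-1*, so its groups did not overlap. These counts cover the whole gene and do not show how much transcript spans the insertion. By RT-PCR across the insertion the paper found full-length mRNA strongly reduced, and it describes the mutants as knockouts. Markers of leaf cells summed to 20699 to 22126 CPM in wild type and 20531 to 21953 CPM in *prp40c-1*, and markers of root hairs to 19.4 to 33.7 and 27.9 to 29.5 CPM. Seed storage markers summed to at most 0.518 CPM, with *CRU3* and *SESA3* at 0 in all 6 libraries, and floral organ markers to at most 1.21 CPM, with *AG* at 1 count in all. Of the 14 markers 8 had enough counts for a test (3 leaf, 3 root, 1 seed and 1 floral). None of these 8 was called different by edgeR or DESeq2, with 2 leaf markers at an unadjusted p below 0.05.

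The 46 members whose mean count reached 10 in either genotype were tested in a fit over 22182 genes with edgeR's quasi-likelihood test, and a gene was called where the Benjamini-Hochberg adjusted p (FDR) was under 0.05 and the log2 fold change was beyond ±0.58. In *prp40c-1*, 11 members were called higher and 2 lower. Over all tested genes, 3.67% were called, 2.81% higher and 0.852% lower, and among the tested members the shares were 23.9% higher and 4.35% lower. AT1G33760, *ERF1* and *ERF98* passed the filter only through *prp40c-1*, where they were high. Of the 43 members that passed it in wild type, 9 were called higher and 2 lower. In whole plants, a change in the number of cells that express a gene and a change of RNA per cell cannot be told apart. Of the members called higher, 8 belong to the ERF activators, 1 to the ERF repressors and 2 to the DREB-type genes.

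**Figure D1:**
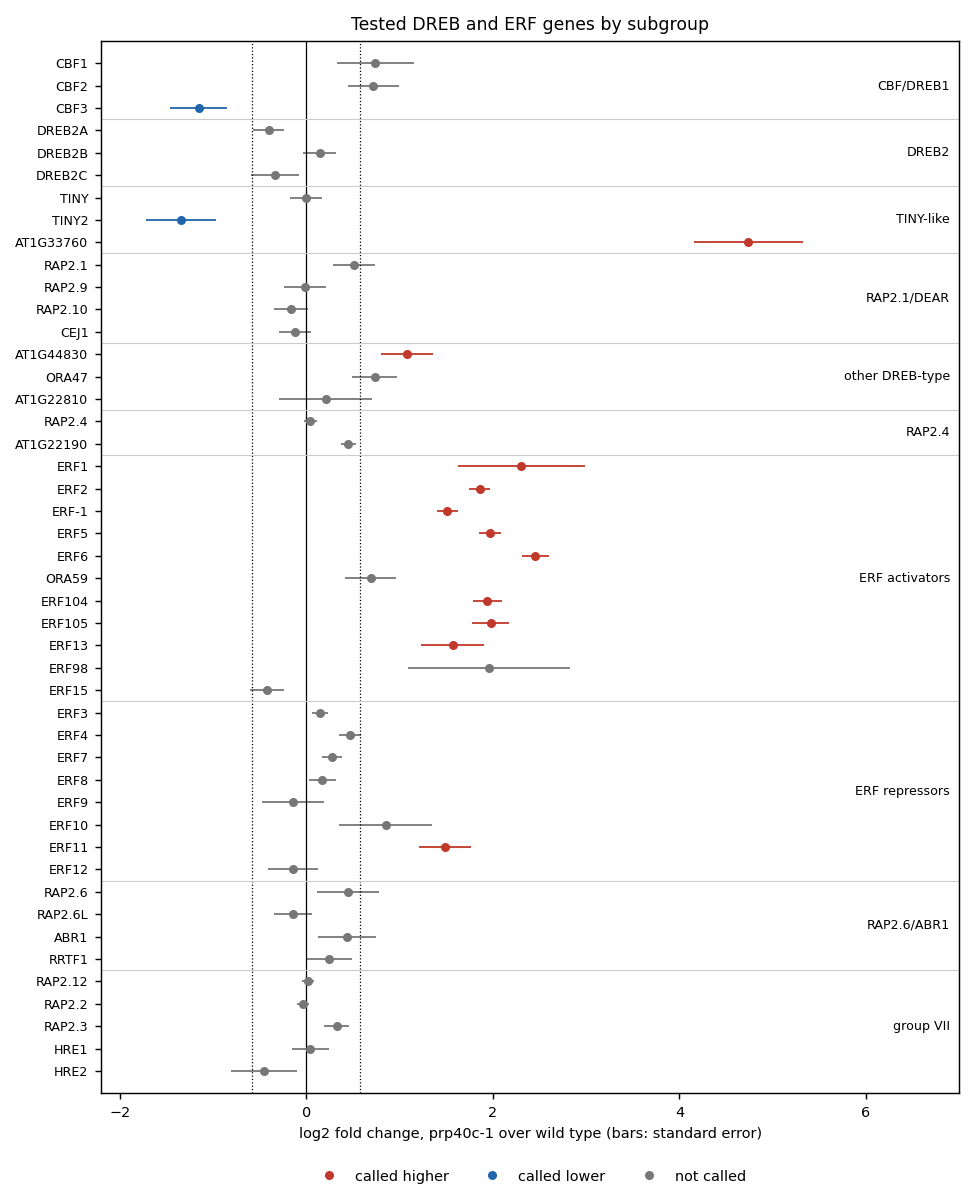
Log2 fold change of *prp40c-1* over wild type (horizontal axis) for each of the 46 tested members, grouped by subgroup. Bars are standard errors and dotted lines mark ±0.58. The ERF activators gather between 1.51 and 2.46 with *ORA59* and *ERF15* apart, while the group VII genes lie between -0.45 and 0.33.

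With no fold-change threshold, 13 members were higher and 2 lower at the FDR of 0.05, against 7.05% higher and 4.15% lower among all tested genes. The 3 *prp40c-1* libraries lay above all 3 wild-type libraries for 17 tested members (37.0%, against 15.5% of all tested genes) and below them for 4 (8.70%, against 13.5%). The median log2 fold change was 0.30 over the tested members and -9e-04 over all tested genes. It was 0.44 over the 28 tested ERF-type genes and 0.09 over the 18 tested DREB-type genes. The higher median was thus that of the ERF-type genes, and its difference from the DREB-type genes was not tested. The counts and medians of this paragraph include members that passed the filter only through *prp40c-1*. Of the 43 members that passed it in wild type, 11 were higher and 2 lower at the FDR with no fold-change threshold. For 15 of the 43 (34.9%) the *prp40c-1* libraries lay above the wild-type libraries and for 4 (9.3%) below. The median log2 fold change of the 43 was 0.24.

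The ERF activators held most of the called members. Of 12 genes 11 were tested and 8 were called higher, with a median log2 fold change of 1.94. The 11 and their median include *ERF1* and *ERF98*, which passed the filter only through *prp40c-1*, and the 8 include *ERF1*. The upstream sequences of *ERF5* and *ERF2* are shown as examples, because the called activators moved together and these genes lie near each other. The window for each gene runs from 250 bases before to 50 bases after the gene start of the deposited table, in the RefSeq TAIR10.1 genome. Letters are 5′ to 3′ on the gene's strand, and capitals mark matches on either strand to the W box (TTGACC or TTGACT), the DRE (ACCGAC or GCCGAC), the G box (CACGTG), the GCC box (AGCCGCC) or the rapid stress response element (CGCGTT).
ERF5 (chr5:19179689-19179988, plus strand): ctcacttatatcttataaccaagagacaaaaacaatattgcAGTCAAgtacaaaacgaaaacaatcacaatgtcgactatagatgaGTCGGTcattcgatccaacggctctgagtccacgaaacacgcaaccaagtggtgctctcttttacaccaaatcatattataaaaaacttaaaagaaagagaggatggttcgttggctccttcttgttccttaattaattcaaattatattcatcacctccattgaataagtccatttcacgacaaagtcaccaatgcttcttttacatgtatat
ERF2 (chr5:19172774-19173073, minus strand): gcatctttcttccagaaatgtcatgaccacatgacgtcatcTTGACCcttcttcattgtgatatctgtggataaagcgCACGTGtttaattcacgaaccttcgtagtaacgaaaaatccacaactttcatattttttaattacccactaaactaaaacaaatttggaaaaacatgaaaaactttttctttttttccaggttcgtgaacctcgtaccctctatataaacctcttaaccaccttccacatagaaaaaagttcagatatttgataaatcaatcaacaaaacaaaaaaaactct
*ERF5* has a W box and a DRE on the opposite strand, and *ERF2* a W box and a G box. W boxes, which WRKY factors bind, were found in 8 of the 11 promoters of members called higher (72.7%), in 20 of the 52 member promoters (38.5%) and in 8504 of 26711 promoters of protein-coding genes (31.8%). The G box was found in 2 of the 11 promoters, in 14 of the 52 (26.9%) and in 8.15% of all. The DRE was found in 1 of the 11 (9.09%), in 9 of the 52 (17.3%) and in 8.99% of all. The GCC box and the rapid stress response element were found in 0 of the 11, in 2 and 4 of the 52 and in 1.16% and 3.90% of all. A match says that these letters are present in the window and nothing about a factor.

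*ERF6* (AT4G17490, chromosome 4, 9752824 to 9753867), an activator that responds to osmotic stress and chitin, was at 8.63, 12.0 and 10.8 CPM in the wild-type libraries and at 45.0, 57.9 and 69.5 CPM in *prp40c-1*. Every mutant library was far above every wild-type library. The mean rose from 10.5 ± 1.71 to 57.5 ± 12.3 CPM (SD, n = 3), 5.49-fold, with a log2 fold change of 2.46 (SE 0.145, adjusted p = 5.5e-08 by the same test, SE being the standard error).

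*ERF104* (AT5G61600, chromosome 5, 24766386 to 24767430), a substrate of the MAP kinase MPK6 in the response to flagellin, was at 18.2, 28.0 and 34.6 CPM in wild type and at 95.4, 100.2 and 114 CPM in *prp40c-1*. It was the most abundant activator in both genotypes and the groups did not overlap. Its log2 fold change was 1.94 (SE 0.155, edgeR adjusted p = 7.5e-07), and per kb of exon it rose from 25.8 ± 7.88 to 98.9 ± 9.42 CPM (SD, n = 3). In wild type *RAP2.4*, *RAP2.12*, *RAP2.2* and *ERF3* had higher means per kb than *ERF104*, and in *prp40c-1* no tested member did.

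*ERF105* (AT5G51190, chromosome 5, 20800584 to 20801416), a relative of *ERF104* known for its part in freezing tolerance, was at 3.92, 8.20 and 7.97 CPM in wild type and at 22.8, 26.4 and 30.0 CPM in *prp40c-1*. Its log2 fold change was 1.98 (SE 0.195, edgeR adjusted p = 7.3e-06). *ERF5* (AT5G47230, chromosome 5, 19179939 to 19181129), the closest relative of *ERF6*, was at 7.82, 8.94 and 9.85 CPM in wild type and at 30.7, 33.3 and 40.5 CPM in *prp40c-1*. For both genes the lowest mutant library was above the highest wild-type library by more than the SD of either genotype. The log2 fold change of *ERF5* was 1.97 (SE 0.119, edgeR adjusted p = 5.8e-08).

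*ERF2* (AT5G47220, chromosome 5, 19171862 to 19172823), a GCC-box activator of the defensin genes, was at 5.98, 7.49 and 7.72 CPM in wild type and at 23.6, 27.1 and 26.1 CPM in *prp40c-1*. *ERF-1* (AT4G17500, chromosome 4, 9759325 to 9760340), a second GCC-box activator that is not the *ERF1* gene below, was at 13.3, 14.0 and 16.5 CPM in wild type and at 34.9, 42.7 and 47.5 CPM in *prp40c-1*. These genes rose 3.63-fold and 2.86-fold without overlap. The log2 fold change was 1.86 (SE 0.115, edgeR adjusted p = 7.0e-08) for *ERF2* and 1.51 (SE 0.116, edgeR adjusted p = 5.3e-07) for *ERF-1*.

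**Figure D2:**
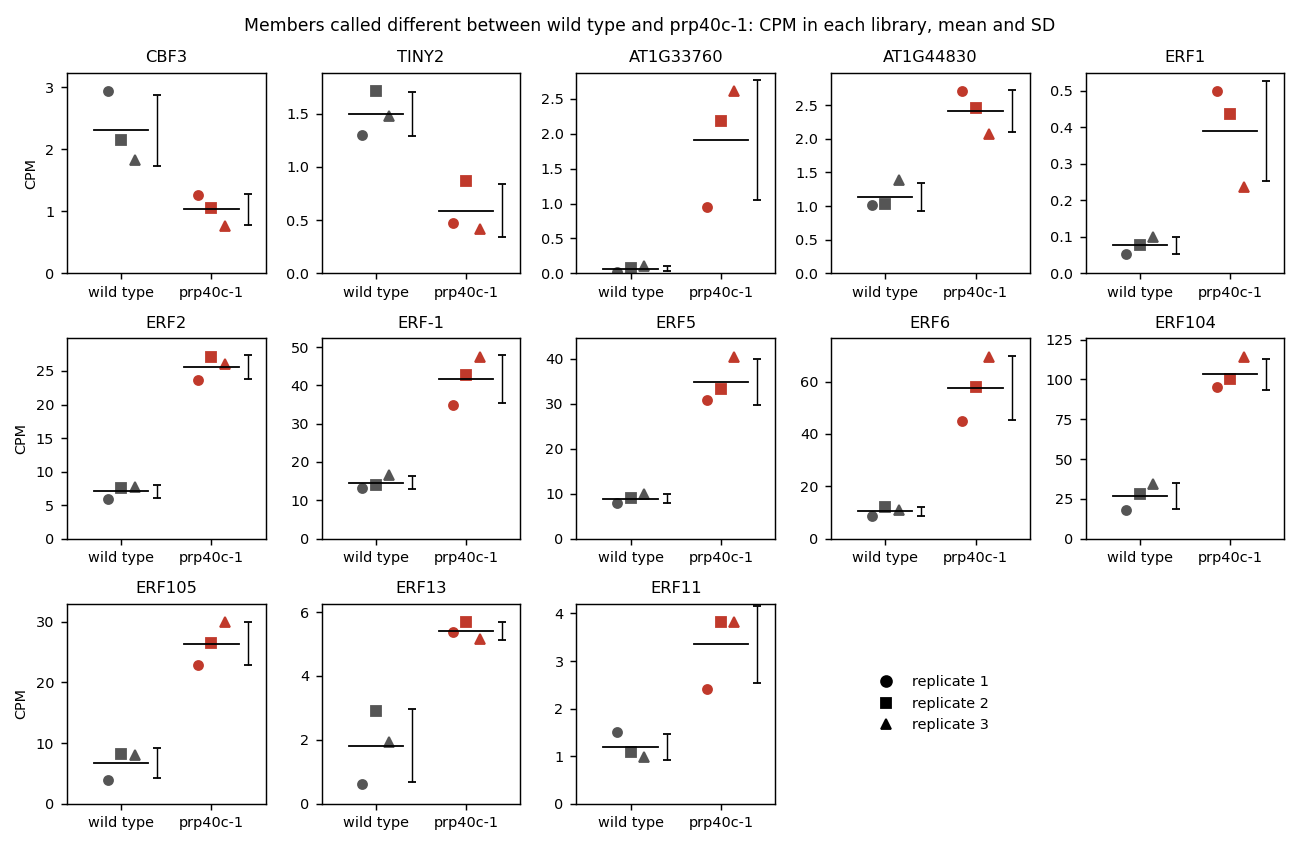
CPM (vertical axis, from 0) in each library for the 13 members called different. Symbols mark the replicates, horizontal lines the means and bars the SD over 3 libraries. In each panel all 3 *prp40c-1* libraries lie on one side of all 3 wild-type libraries, above them in 11 genes and below them in *CBF3* and *TINY2*.

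The remaining called activators were less abundant. *ERF13* (AT2G44840, chromosome 2, 18495341 to 18496272), a member of the same group IX as the genes above, was at 0.624, 2.92 and 1.93 CPM in wild type and at 5.38, 5.70 and 5.16 CPM in *prp40c-1*. Its wild-type libraries were spread widely, with a coefficient of variation of 63.1% against 4.99% in *prp40c-1*. The log2 fold change was 1.57 (SE 0.337, edgeR adjusted p = 0.00663), and DESeq2's Wald test gave an adjusted p of 0.0569, at which it was not called.

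*ERF1* (AT3G23240, chromosome 3, 8295644 to 8296604), which integrates ethylene and jasmonate signals and activates the defensin *PDF1.2A*, had 2, 3 and 4 counts in wild type and 19, 16 and 8 counts in *prp40c-1*. The ratio of the summed counts, scaled to library totals, was 5.13 (95% exact counting interval 2.47 to 12.0, for counting error only). Its edgeR adjusted p of 0.0387 rose above 0.05 when any single library was left out (0.0521 to 0.127), with no filter on low counts (0.0919) and with the replicate block (0.0722). The call for *ERF1* therefore rests on all 6 libraries together.

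The activators that were not called were *ORA59*, *ERF98* and *ERF15*, while *ERF14* failed the filter. *ORA59*, the other jasmonate and ethylene integrator, had a log2 fold change of 0.69 with groups that did not overlap (edgeR adjusted p = 0.12). *ERF98*, the neighbour of *ERF1*, had 3, 5 and 0 counts in wild type and 15, 4 and 11 in *prp40c-1* (edgeR adjusted p = 0.176). *ERF15* had a log2 fold change of -0.42 and its *prp40c-1* libraries were below the wild-type libraries (edgeR adjusted p = 0.154). These 3 genes and *RAP2.1* were picked out after their values were seen.

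Among the 3 wild-type libraries, replicate 1 was the lowest for all 8 called activators and for 27 of the 46 tested members, against 30.7% of all tested genes. Without it, 7 of the 8 activators were still called, with log2 fold changes between 1.16 for *ERF13* and 2.33 for *ERF6*, and *ERF1* was not (adjusted p = 0.127). Among the *prp40c-1* libraries, replicate 1 was the lowest for 6 of the 8 and replicate 3 the highest for 5. Summed over the 12 activators, the level was 64.6, 88.2 and 95.2 CPM in wild type and 264, 299 and 340 CPM in *prp40c-1*. The spread within each genotype was thus small beside the gap between them.

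The ERF repressors followed with a single call. Of 8 tested genes *ERF11* was called higher, and the median log2 fold change was 0.22. *ERF11* (AT1G28370, chromosome 1, 9955969 to 9956940), an EAR repressor that lowers ethylene synthesis, was at 1.51, 1.08 and 0.987 CPM in wild type and at 2.42, 3.82 and 3.82 CPM in *prp40c-1*. Its log2 fold change was 1.49 (SE 0.276, edgeR adjusted p = 0.00228), and it was called with each library left out in turn.

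*ERF4* (AT3G15210, chromosome 3, 5121422 to 5122562), a repressor of jasmonate-responsive defence genes, was at 20.8, 30.9 and 27.6 CPM in wild type and at 34.1, 37.8 and 37.9 CPM in *prp40c-1*. The groups did not overlap, and the adjusted p of edgeR was 0.0161, but its log2 fold change of 0.47 (SE 0.116) was below the fold-change threshold. Without wild type replicate 2 it was 0.59 and the gene was called. The adjusted p rose above 0.05 without wild type replicate 1 (log2 fold change 0.32, adjusted p = 0.0554), and likewise with *prp40c-1* replicate 2 (0.0779) or 3 (0.0739) left out. *ERF3* (AT1G50640, chromosome 1, 18757148 to 18758433), the most abundant repressor, was at 51.6, 60.0 and 50.6 CPM in wild type and at 53.6, 60.4 and 65.5 CPM in *prp40c-1*. Its groups overlapped, with a log2 fold change of 0.15 (SE 0.0866, edgeR adjusted p = 0.327).

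**Figure D3:**
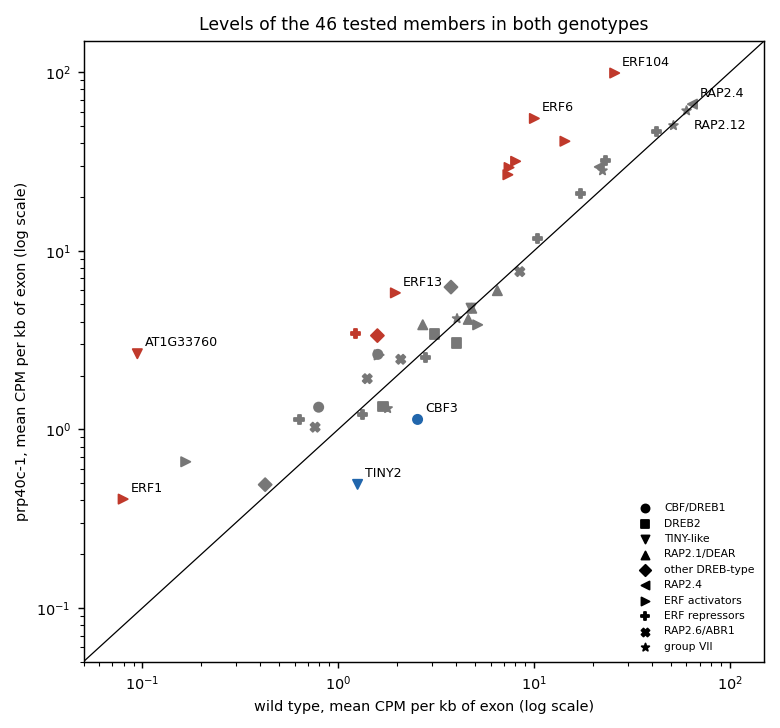
Mean level per kb of exon in wild type (horizontal axis) and in *prp40c-1* (vertical axis), both on log scales in CPM per kb, for the 46 tested members. Red symbols are called higher, blue symbols called lower, grey symbols not called, and the line marks equal levels. *ERF104* moved above *RAP2.4* and *RAP2.12*, which lie on the line near 60 to 66 CPM per kb.

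The CBF/DREB1 genes were expressed at low levels at 22 °C. *CBF4*, *DDF1* and *DDF2* failed the filter, with 11, 21 and 0 counts in all 6 libraries. *CBF1*, *CBF2* and *CBF3* stand next to each other on the minus strand of chromosome 4 with no gene between them in the table, and they act together on the COR genes in the cold. The windows of *CBF2* and *CBF3* are shown with the same capitals, since the called gene and its neighbour had fold changes of different sign, a difference that was not tested.
CBF2 (chr4:13016171-13016470, minus strand): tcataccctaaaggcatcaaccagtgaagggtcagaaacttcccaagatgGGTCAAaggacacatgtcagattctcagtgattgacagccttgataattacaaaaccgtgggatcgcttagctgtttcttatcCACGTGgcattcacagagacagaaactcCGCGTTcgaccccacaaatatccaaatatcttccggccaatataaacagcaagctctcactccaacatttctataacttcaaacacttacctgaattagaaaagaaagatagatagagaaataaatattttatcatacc
CBF3 (chr4:13019072-13019371, minus strand): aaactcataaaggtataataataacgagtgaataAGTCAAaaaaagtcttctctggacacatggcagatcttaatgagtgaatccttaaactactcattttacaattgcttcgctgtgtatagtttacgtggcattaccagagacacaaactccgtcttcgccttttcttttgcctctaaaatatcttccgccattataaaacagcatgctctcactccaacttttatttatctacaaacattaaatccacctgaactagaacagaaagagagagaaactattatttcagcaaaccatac
*CBF2* has W-box, G-box and rapid stress response element letters in its window and *CBF3* a W box only. The rapid stress response element is the site of the CAMTA factors.

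*CBF3* (AT4G25480, chromosome 4, 13018214 to 13019121) was at 2.94, 2.16 and 1.83 CPM in wild type and at 1.26, 1.06 and 0.771 CPM in *prp40c-1*. Every mutant library was below every wild-type library, and the mean fell from 2.31 ± 0.570 to 1.03 ± 0.246 CPM (SD, n = 3). The log2 fold change was -1.15 (SE 0.307, edgeR adjusted p = 0.0244), and the call was lost when wild type replicate 1 was left out (adjusted p = 0.124), and likewise with *prp40c-1* replicate 2 (0.0735) or 3 (0.111) left out.

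*CBF2* (AT4G25470, chromosome 4, 13015277 to 13016220) was at 1.3, 1.18 and 2.02 CPM in wild type and at 2.28, 2.70 and 2.46 CPM in *prp40c-1*, and its log2 fold change was 0.72 (SE 0.274, edgeR adjusted p = 0.111). Its groups did not overlap, and it was called only without wild type replicate 3 (log2 fold change 1.00, adjusted p = 0.0406). *CBF1* (AT4G25490, chromosome 4, 13021780 to 13022725) was at 0.624, 0.394 and 1.23 CPM in wild type and at 1.39, 1.23 and 1.16 CPM in *prp40c-1*, with overlapping groups (log2 fold change 0.74, edgeR adjusted p = 0.296). The sources used here do not say how reads matching more than 1 locus were handled. Of the windows of 50 bases in each gene, 3.23% in *CBF1*, 4.13% in *CBF2* and 0.93% in *CBF3* occur a further time in the genome. The sequenced reads were longer than these windows, and how many of them match more than 1 locus was not measured.

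The 3 DREB2 genes were all tested and none was called by edgeR, nor by DESeq2, with 1 at an unadjusted p below 0.05. That gene was *DREB2A* (AT5G05410, chromosome 5, 1602205 to 1603926), at 6.42, 5.57 and 5.73 CPM in wild type and at 4.15, 5.29 and 3.94 CPM in *prp40c-1*. Its mutant libraries were all lower, with a log2 fold change of -0.40 (SE 0.166, edgeR adjusted p = 0.141).

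The TINY-like genes, which bind the DRE and the ethylene-responsive element, differed among themselves. *TINY* (AT5G25810, chromosome 5, 8986771 to 8987787) was at 5.28, 4.97 and 4.29 CPM in wild type and at 4.15, 4.74 and 5.66 CPM in *prp40c-1*, with a log2 fold change of -1e-04 (SE 0.172). *TINY2* (AT5G11590, chromosome 5, 3727534 to 3728726) was at 1.3, 1.71 and 1.48 CPM in wild type and at 0.472, 0.872 and 0.415 CPM in *prp40c-1*. All mutant libraries of *TINY2* were lower, with a log2 fold change of -1.34 (SE 0.379, edgeR adjusted p = 0.0322). It was called with *prp40c-1* replicate 2 left out and lost the call when wild type replicate 1 (adjusted p = 0.0583), 2 (0.0933) or 3 (0.0601) or *prp40c-1* replicate 1 (0.0864) or 3 (0.138) was left out.

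AT1G33760 (chromosome 1, 12237878 to 12238598), a DREB subfamily A-4 gene with no name of its own in the annotation, had 1, 3 and 4 counts in wild type and 36, 80 and 88 counts in *prp40c-1*. This was 0.0260, 0.0789 and 0.0987 CPM against 0.945, 2.18 and 2.61 CPM, with the lowest mutant library far above the highest wild-type library. The ratio of summed counts scaled to library totals was 27.4 (95% exact counting interval 13.6 to 64.3). Its log2 fold change was 4.74 (SE 0.583, edgeR adjusted p = 5.8e-05), the largest of the 46 tested members, and it was called with each library left out.

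Of the other DREB-type genes, AT1G44830 (chromosome 1, 16933792 to 16934511) was at 1.01, 1.03 and 1.38 CPM in wild type and at 2.70, 2.45 and 2.08 CPM in *prp40c-1*. It was 2.11-fold higher without overlap, with a log2 fold change of 1.08 (SE 0.278, edgeR adjusted p = 0.0203). Its call was lost with replicate 1 (adjusted p = 0.0716) or 2 (0.0558) of wild type left out, and with replicate 1 (0.0683) or 2 (0.0727) of *prp40c-1* left out.

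*ORA47* (AT1G74930, chromosome 1, 28144132 to 28145049), an activator of jasmonate biosynthesis genes, was at 1.98, 4.34 and 4.05 CPM in wild type and at 5.91, 5.04 and 6.28 CPM in *prp40c-1*. The groups did not overlap, and wild type replicate 1 was the lowest library by far. The log2 fold change was 0.73 (SE 0.237), and the edgeR adjusted p of 0.0598 missed the threshold. It was called by DESeq2's Wald test (adjusted p = 0.03), by edgeR's exact test (0.024), with no filter on low counts (0.0253), with the replicate block (0.0313), without wild type replicate 2 (0.0358) and without wild type replicate 3 (0.0463). AT5G21960 and AT1G19210 failed the filter, with 6 and 37 counts in all, and AT5G21960 had its counts in *prp40c-1* replicate 2 alone.

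The RAP2.1/DEAR genes, small DREB-type repressors, were 4 and none was called by edgeR or DESeq2, with 1 at an unadjusted p below 0.05. The most abundant, *CEJ1* (AT3G50260, chromosome 3, 18634576 to 18635398), was at 4.76, 6.34 and 4.94 CPM in wild type and at 4.15, 5.15 and 5.45 CPM in *prp40c-1*, with overlapping groups (log2 fold change -0.12, SE 0.175). *RAP2.1* had a log2 fold change of 0.51 and no overlap (edgeR adjusted p = 0.164).

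*RAP2.4* (AT1G78080, chromosome 1, 29364249 to 29366073), which links light, ethylene and drought responses, was the most abundant member in wild type, at 127, 117 and 108 CPM, and it was at 118, 124 and 121 CPM in *prp40c-1*. The groups overlapped, with a log2 fold change of 0.04 (SE 0.0704, edgeR adjusted p = 0.778). Its relative AT1G22190, picked out after its value was seen, was at 30.5, 32.0 and 34.9 CPM in wild type and at 43.6, 41.8 and 47.8 CPM in *prp40c-1*. The groups of AT1G22190 did not overlap and the edgeR adjusted p was 0.00192, but the log2 fold change of 0.45 (SE 0.082) was below the fold-change threshold. By either tool neither gene was called, and 1 of them was at an unadjusted p below 0.05.

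The RAP2.6/ABR1 genes act in abscisic acid, jasmonate and redox responses. All 4 were tested and none was called by edgeR or DESeq2, with 0 at an unadjusted p below 0.05. *RAP2.6L* (AT5G13330, chromosome 5, 4272060 to 4274660), which acts in the rejoining of cut tissue, was at 10.1, 13.1 and 6.32 CPM in wild type and at 9.95, 8.88 and 7.80 CPM in *prp40c-1*. Its libraries overlapped widely (log2 fold change -0.14, SE 0.199).

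The 5 group VII genes were all tested and none was called by edgeR or DESeq2, with 1 at an unadjusted p below 0.05. *RAP2.12* (AT1G53910, chromosome 1, 20135112 to 20136970) was at 93.0, 99.7 and 94.8 CPM in wild type and at 92.8, 96.6 and 101.9 CPM in *prp40c-1*. Its coefficient of variation was 3.65% and 4.66%, and its log2 fold change was 0.02 (SE 0.0658). Of its windows of 50 bases 7.46% occur elsewhere in the genome, and how many of its reads match more than 1 locus was not measured.

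Splicing could be examined in few members because most have no intron. Of the 52 genes, 12 had an intron entry in the junction table, 9 introns had counts for both boundaries and the spliced junction, and 3 had enough reads for a test. Boundary reads were set against spliced reads in edgeR's quasi-likelihood test of the interaction of read type and genotype, called at an FDR below 0.15 and a log2 change above 0.58. None of the 3 was called or had an unadjusted p below 0.05, and 0% of all 13735 tested introns were called. That share depended on the setting, since 137 of 6329 introns were called with a minimum of 10 reads and 9 with column totals as library sizes. The paper used a different test, reported introns with altered splicing in *prp40c-1* and checked some splicing events by RT-PCR. The number at an unadjusted p below 0.05 was 1455 of all introns.

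In the tested intron of *RAP2.2* (AT3G14230, chromosome 3, 4737473 to 4737574), boundary reads numbered 1, 4 and 15 in wild type and 11, 14 and 10 in *prp40c-1*. Spliced reads numbered 138, 171 and 200 in wild type and 155, 131 and 145 in *prp40c-1*. The groups overlapped through wild type replicate 3 (log2 change of the ratio 1.3, SE 0.765, FDR 0.574). In the intron of *RAP2.6L* (chromosome 5, 4272478 to 4273916), boundary reads numbered 4, 1 and 0 in wild type and 4, 1 and 12 in *prp40c-1*, so that *prp40c-1* replicate 3 alone was high (log2 change 1.98, FDR 0.598). Without that library the intron had too few reads for the test. The intron of *RAP2.3* had a log2 change of -0.46 (FDR 0.809).

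*RAP2.2* also has an annotated pair of acceptors 3 bases apart, shown here with both AG in capitals on the minus strand of chromosome 3.
RAP2.2 acceptors (chr3:4738444-4738471, minus strand): tgtgtgtttggctacAGtAGgttcagca
Reads spliced to the first AG numbered 287, 305 and 324 in wild type and 224, 239 and 262 in *prp40c-1*, and those to the second AG 57, 50 and 51 and 49, 32 and 47. The first AG took 85.2% ± 1.59 of these wild-type reads and 85.0% ± 3.08 of those of *prp40c-1* (SD, n = 3), a difference smaller than the spread in either genotype.

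Genes around these factors were counted in 6 lists. The lists were chosen with earlier results of these data known. In all lists together 15 genes were called, 14 higher and 1 lower. Of those called higher, 8 were in the touch and wound list and 4 among the ERF defence targets. Over all tested genes 3.67% were called, 2.81% higher and 0.852% lower. Among 13 late embryogenesis and cold-protective genes listed as targets of CBF and DREB factors, 1 was called lower and none higher. At the FDR without a fold-change threshold 7 were higher and 1 lower, against 7.05% and 4.15% of all tested genes. *RD29B*, a gene of abscisic acid and drought responses, was at 6.57, 7.83 and 6.59 CPM in wild type and at 3.57, 2.75 and 3.11 CPM in *prp40c-1* (log2 fold change -1.15, SE 0.168, edgeR adjusted p = 3.0e-04). Whether *RD29B* answers to CBF or DREB factors in these plants was not tested. The listed genes with the highest mean CPM were *COR47*, *COR413-PM1* and *COR15A*, with log2 fold changes of 0.27 (adjusted p = 0.0172), 0.02 (0.888) and 0.38 (0.019) by edgeR. The median of the list was 0.30. The listed genes other than *RD29B* had shifts inside the fold-change threshold. The nearest to it, *COR413IM1* (0.579), picked out after its value was seen, was called without wild type replicate 2 or 3 or *prp40c-1* replicate 1 and with the replicate block (edgeR adjusted p = 5.3e-04).

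Of 9 genes upstream of the CBF genes none was called by edgeR or DESeq2, with 5 at an unadjusted p below 0.05. At the FDR without a fold-change threshold 3 of the 9 were higher and 0 lower, against 7.05% and 4.15% of all tested genes. *SCRM2*, a partner of ICE1, had a log2 fold change of -0.07 (edgeR adjusted p = 0.591). The calmodulin-binding activators *CAMTA1* and *CAMTA3*, which bind CBF promoters and repress defence genes, had 0.25 (0.0255) and 0.35 (0.0116), below the threshold on fold change. The largest shifts of the list, picked out after their values were seen, were those of *MYB15* (0.85, edgeR adjusted p = 0.103) and *ZAT12* (0.53, 0.0296), which encode a MYB and a zinc finger protein. *MYB15* was called higher with the replicate block (0.0268) and *ZAT12* without wild type replicate 2 (0.0291) or *prp40c-1* replicate 1 (0.00789). Of 11 ethylene receptors and signalling genes none was called by either tool, with 3 at an unadjusted p below 0.05. At the FDR without a fold-change threshold 1 of the 11 was higher and 1 lower, against 7.05% and 4.15% of all tested genes. *EIN3*, the master transcription factor of the pathway, was at 147 ± 3.46 and 161 ± 10.6 CPM, *EIN2* at 133 ± 2.09 and 129 ± 2.78 CPM and *EBF1* at 105 ± 4.89 and 90.8 ± 2.14 CPM in wild type and *prp40c-1* (SD, n = 3).

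Of 6 defence targets of ERF activators, 4 defensin genes were called higher. Of these *PDF1.2c* passed the filter only through *prp40c-1*, with 8, 10 and 6 counts in wild type and 27, 27 and 42 in *prp40c-1*. *PDF1.2A* was at 0.754, 0.920 and 0.938 CPM in wild type and at 2.15, 4.17 and 4.18 CPM in *prp40c-1*, which is a log2 fold change of 2.00 (SE 0.303, edgeR adjusted p = 4.2e-04). *PDF1.2b*, *PDF1.2c* and *PDF1.3* had log2 fold changes of 2.23, 2.1 and 1.04. That of *PDF1.2b*, with 4, 31 and 11 counts in wild type and 68, 72 and 62 in *prp40c-1*, ran from 1.78 without wild type replicate 1 to 3.28 without wild type replicate 2. *PDF1.2c* lost its call without *prp40c-1* replicate 3 (adjusted p = 0.084), and *PDF1.3* without wild type replicate 1 (0.133) or 3 (0.0673) and without *prp40c-1* replicate 1 (0.143) or 2 (0.0907). These defensins are close paralogs, and 9.36% of the windows of 50 bases in *PDF1.2b* and 5.11% in *PDF1.3* occur elsewhere in the genome. The chitinase *PR3* and the related *PR4*, at 45.0 ± 14.6 and 58.7 ± 12.9 CPM in wild type, reached 47.0 ± 2.06 and 65.1 ± 6.4 CPM (SD, n = 3) in the mutant and were not called.

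**Figure D4:**
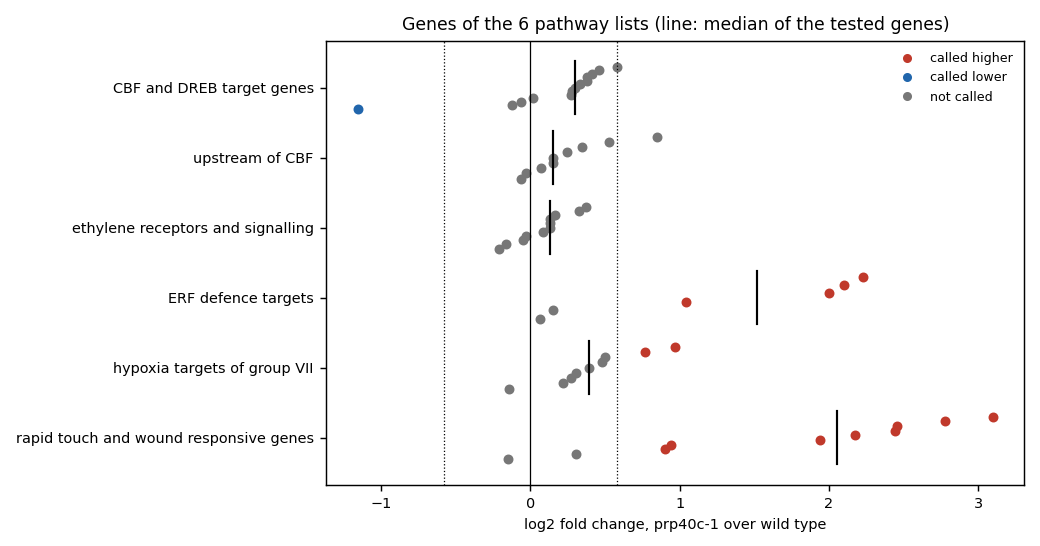
Log2 fold change of *prp40c-1* over wild type (horizontal axis) for the tested genes of the 6 lists. Each point is a gene, black lines are medians and dotted lines mark ±0.58. The touch and wound list has 8 called genes and a median of 2.05, whereas the CBF upstream and ethylene lists have no called gene.

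Of 9 hypoxia targets of group VII factors 2 were called higher, *LBD41* from 14.7 ± 1.70 to 25.0 ± 1.95 CPM and *HRA1* from 9.19 ± 0.748 to 17.97 ± 2.61 CPM (SD, n = 3). Their log2 fold changes were 0.77 and 0.97 with edgeR adjusted p of 1.7e-04 and 8.2e-05. With no fold-change threshold 4 were higher at the FDR, against 7.05% of all tested genes. The further 2, picked out after their values were seen, were *PCO1* (0.48, edgeR adjusted p = 0.0149) and *SUS4* (0.50, 0.0388). The sucrose synthase *SUS1*, the alcohol dehydrogenase *ADH1* and the pyruvate decarboxylase *PDC1*, the uncalled genes of highest mean CPM, had log2 fold changes of -0.14, 0.39 and 0.22. Without wild type replicate 3 *ADH1* was called (edgeR adjusted p = 0.00504), and *SUS4* was called without wild type replicate 2 (0.0138) or *prp40c-1* replicate 1 (0.0119). Wild type replicate 1 was the lowest wild-type library for 8 of these 9 genes.

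Of 11 genes that respond rapidly to touch and wounding, 10 were tested and 8 were called higher, with a median log2 fold change of 2.05. The calmodulin-like *TCH3* was at 81.9, 83.3 and 92.1 CPM in wild type and at 298, 393 and 470 CPM in *prp40c-1*. The xyloglucan-modifying *TCH4* rose from 44.1 ± 10.8 to 303 ± 46.4 CPM and the calmodulin-like *TCH2* from 23.4 ± 3.26 to 44.9 ± 4.84 CPM (SD, n = 3). The defence regulators *WRKY33* and *WRKY40* had log2 fold changes of 2.45 and 3.09, the zinc finger gene *ZAT10* 1.94, the calcium sensor *CML38* 2.44 and the jasmonate repressor *JAZ10* 0.90.

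The jasmonate synthesis genes *LOX3* and *OPR3* of the same list, with log2 fold changes of 0.31 and -0.15, were not called. *JAZ10* was not called without *prp40c-1* replicate 2 (adjusted p = 0.0816) or replicate 3 (0.113). Summed over the list, the level was 234, 285 and 283 CPM in wild type and 924, 1151 and 1372 CPM in *prp40c-1*. The library order in *prp40c-1* was that of the summed ERF activators, and in wild type the 2 orders differed. That *prp40c-1* order was not particular to them, since the leaf markers had it too (20531, 21158 and 21953 CPM). The CBF and DREB targets had another order (1869, 1780 and 1820 CPM). The touch and wound genes moved with the ERF activators across the genotypes, and their part in the result was not tested.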

How the data were processed

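RNA-seq of 6 libraries was used, 3 of wild type and 3 of *prp40c-1*. The authors made TruSeq libraries from poly(A) RNA and mapped the reads to TAIR10, and the submitters' processing notes name TopHat2 2.1.1 and SAMtools 1.3. The deposited values are raw counts of reads per gene and per junction with no normalization, and the sources used here do not say how strand and multiply mapped reads were handled. The junction table also holds columns of the authors' own ratio per genotype, which were not used. Gene counts were tested with edgeR 4.0.16 in R 4.3.3 (glmQLFit and glmQLFTest, TMM, genotype as the only term) on genes whose mean count reached 10 in either genotype. Standard errors are the absolute log2 fold change divided by the square root of F. Numbers of genes at an unadjusted p below 0.05 are given without the share of all tested genes, which was not counted. Intron counts were fitted in edgeR with an effect per library and equal library sizes, for introns whose mean reached 5 spliced reads in both genotypes and 5 boundary reads in either. Both steps were tested on simulated data. Alternatives were DESeq2 1.42.0, RLE factors, no filter, edgeR's exact test, no fold-change threshold, a replicate block, each library left out, an intron minimum of 10 reads and column totals as intron library sizes. Members called in the fit or with any library left out, and the most abundant member of each subgroup, are named with every library value. From a list, called genes and up to 3 others of highest mean CPM are named, and those added after their values were seen are marked. The members and lists were chosen with earlier results of these data known. Gene coordinates are the files' own (TAIR10). All 27998 genes placed on TAIR10.1 overlapped their RefSeq locus, and 98.91% of introns read from that genome had GT and AG ends, so sequences were taken from it. Promoter windows ran from 250 bases before to 50 bases after the gene start, and some are not reported here. Intervals and the 3-count limit cover counting error only.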

Additional observations from a re-analysis of the deposited data

How the results depend on the processing

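The count of members called higher stayed within 1.5 times of 11 in every alternative, and was 11 by DESeq2 and 9 to 12 with each library left out. The count called lower was 2 in the alternatives that kept all libraries, and 0 to 1 with each library left out (0 without wild type replicate 1 or *prp40c-1* replicate 3). The lists held 15 called genes, 29 without the fold-change threshold and 13 to 18 with each library left out. With the replicate block 11 members were called higher, 2 lower and 17 list genes, with *ERF1* lost and *ORA47* gained. Deviations from the genotype means hardly correlated between same-numbered libraries (0.01, 0.01 and 0.03 over the tested genes). Between libraries of different number the correlations ran from -0.03 to 0.03. Whether same-numbered libraries were grown or prepared together cannot be told from these values. No member intron was called under any alternative, whereas over all introns 137 of 6329 were called with a minimum of 10 reads and 9 with column totals. Fold changes that turned sign with a library left out were those of *TINY* (-0.12 to 0.10), *CEJ1* (-0.20 to 0.0197), *RAP2.4* (-0.0154 to 0.10), *RAP2.6L* (-0.38 to 0.12), *RAP2.12* (-0.0178 to 0.0494), *RAP2.9* (-0.13 to 0.14), *ERF9* (-0.33 to 0.17), *ERF12* (-0.39 to 0.02), *RAP2.2* (-0.08 to 0.005) and *HRE1* (-0.13 to 0.24), none of them called. The cause of these shifts was not tested. Depth limits the genes with few counts, above all *ERF1*, AT1G33760 and *ERF98*.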

Other observations

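Members lay close to each other in several places of the genome. *ERF6* and *ERF-1* are 5457 bases apart with no gene between them in the table, on opposite strands, and both were called higher. *ERF2* and *ERF5* are 7115 bases apart with 2 genes between them, on opposite strands, and both were called higher. *ERF11* and *ERF12* are 3228 bases apart with no gene between them, and *ERF11* was called higher while *ERF12* had a log2 fold change of -0.14 (edgeR adjusted p = 0.805). *ERF98* and *ERF1* are 5577 bases apart.

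Levels of the tested members varied more between libraries of a genotype than those of tested genes in general. The median coefficient of variation over the 46 members was 18.4% for wild type and 13.7% for the mutant, and 9.56% and 8.17% over all 22182 tested genes. Differences in mean level between these sets of genes were not taken into account.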
